A study of Mus musculus with 6 samples.

Results

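The lines compared here are the 5 mpkCCD lines labelled as expressing aquaporin 2, divided by how much Aqp2 their own arrays showed. Clones 9 and 11 and the original cells had an Aqp2 signal above 3000 and form the high side, and clones 3 and 10 had a signal below 2000 and form the low side. They are 5 of the 6 arrays of the series. The remaining array, of clone 2, is labelled as not expressing aquaporin 2 and is on neither side. The sides were chosen by the Aqp2 signals of these same arrays, so the contrast between them is described line by line and carries no test.

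mpkCCD cells are immortalised epithelial cells of the mouse cortical collecting duct. Every line had been kept with dDAVP, a vasopressin analogue, at 0.1 nM over 5 days, and no untreated cells were analysed here, so none of the values is a response to the hormone. The question of the series was which transcripts vary with Aqp2 among colonies grown from the same parental cells. Each line is represented by 1 array of total RNA, a numbered line is a single clone, and the original cells are the parental cells, although their sample title also calls them a clone.

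Aquaporin 2 is the water channel of the principal cells that line the collecting duct. Vasopressin binds the V2 receptor, Gs and adenylyl cyclase raise cyclic AMP, and protein kinase A signalling both moves vesicles carrying the channel to the apical membrane and raises transcription of its gene. Principal cells also carry the epithelial sodium channel, while neighbouring intercalated cells move acid and base and lack the water channel.

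The arrays did not divide by side in their median signal, but their highest signals did, by a small margin. These were 46974, 45213 and 42488 in clone 11, clone 9 and the original cells, and 42462 and 39517 in clones 3 and 10. Clone 2 had 35549, so the highest signals had the order of Aqp2, and their part in the results was not tested. Median signals of the 5 expressing lines lay between 84.3 and 88.6 and that of clone 2 was 79.6, and the ratio of 3′ to 5′ actin probe sets ran from 1.58 to 1.76. The Gapdh ratio was 0.856 to 0.887 on the high side and 0.824 to 0.834 on the low side, a small difference whose part in the results was not tested. Avpr2, the V2 receptor, had signals of 1746, 1556 and 1672 on the high side and 1659.7 and 1417 on the low side. Clone 2 had 1742. The kidney cadherin Cdh16 had at least 14868 in all 5 lines. Scnn1g, a sodium channel subunit of principal cells, was less even, from 183 in clone 9 to 988 in clone 10. Defining genes of other kidney and stromal cell types, namely Foxi1, Slc4a1, Slc26a4, Slc34a1, Aqp1, Umod, Slc12a3, Col1a1, Pdgfra, Pecam1 and Ptprc, lay below the low-signal filter, as did Aqp4, a basolateral water channel of principal cells.

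Aqp2 itself had a signal of 6578 in clone 11, 4683 in clone 9 and 3822 in the original cells, against 1698 in clone 3 and 1066 in clone 10. Clone 2 stood at 159. The side means differed by 1.85 on the log2 scale, a 3.61-fold ratio, and clone 3, the upper line of the low side, lay 1.16 below the original cells, the lowest line of the high side. Values here are log2(signal + 18.8), and the distance between the nearest lines of both sides is called the gap, which is negative where the low side was higher. Where signals are listed without the names of the lines, they stand in the order clone 11, clone 9 and original cells for the high side and clone 3 and clone 10 for the low side. A single probe set measured Aqp2. In RNA from whole cultures, a smaller share of cells with the transcript and less transcript per cell cannot be told apart.

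The promoters of Aqp2 and of 3 genes that separated the sides widely are shown because a reader comparing the lines will first want to see what lies before their start sites. They run from 250 bases before to 50 bases after the start, are taken from RefSeq on build GRCm38.p6 and read in the direction of the gene. Capitals mark matches to 1 of 5 motifs searched on both strands: the cyclic AMP response element TGACGTCA, the AP1 site TGANTCA, the GATA site AGATAA, the ETS site GGAAGT and the octamer ATGCAAAT.
Aqp2 (chr15:99578806-99579105, plus strand): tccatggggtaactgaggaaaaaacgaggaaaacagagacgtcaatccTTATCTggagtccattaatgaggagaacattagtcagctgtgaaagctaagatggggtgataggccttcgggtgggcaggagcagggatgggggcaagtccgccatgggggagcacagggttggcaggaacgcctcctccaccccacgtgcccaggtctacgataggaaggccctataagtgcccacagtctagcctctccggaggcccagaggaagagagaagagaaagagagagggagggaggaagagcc
Pou3f3 (chr1:42695518-42695817, plus strand): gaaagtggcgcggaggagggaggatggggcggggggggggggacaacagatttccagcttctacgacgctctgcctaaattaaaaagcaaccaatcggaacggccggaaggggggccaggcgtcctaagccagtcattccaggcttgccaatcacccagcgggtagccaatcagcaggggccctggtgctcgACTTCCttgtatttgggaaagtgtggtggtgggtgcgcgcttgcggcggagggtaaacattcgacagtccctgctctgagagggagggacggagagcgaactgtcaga
Sh3gl2 (chr4:85205206-85205505, plus strand): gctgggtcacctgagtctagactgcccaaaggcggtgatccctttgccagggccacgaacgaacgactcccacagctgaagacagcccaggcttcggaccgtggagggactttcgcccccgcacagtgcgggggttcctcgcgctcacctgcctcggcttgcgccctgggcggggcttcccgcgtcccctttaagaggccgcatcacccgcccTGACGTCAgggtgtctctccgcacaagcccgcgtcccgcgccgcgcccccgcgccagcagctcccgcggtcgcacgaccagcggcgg
Sprr1a (chr3:92485832-92486131, minus strand): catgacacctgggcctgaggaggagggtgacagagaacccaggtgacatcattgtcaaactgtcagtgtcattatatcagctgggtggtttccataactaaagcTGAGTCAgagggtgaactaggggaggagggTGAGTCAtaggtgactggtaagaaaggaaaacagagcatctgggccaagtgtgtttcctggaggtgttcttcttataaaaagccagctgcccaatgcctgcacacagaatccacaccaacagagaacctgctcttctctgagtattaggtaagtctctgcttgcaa
The Aqp2 window held 1 GATA match, read from the opposite strand, and that of Pou3f3 held 1 ETS match. The Sh3gl2 window held 1 cyclic AMP response element and that of Sprr1a 2 AP1 sites. A match is a stretch of letters and not a bound site. Of 32851 mouse promoters of this length, 1.79% held the cyclic AMP response element, 7.81% the AP1 site, 11.2% the GATA site, 23.8% the ETS site and 1.74% the octamer.

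Among 10342 genes past the filter, 1830 (17.7%) had all 3 high-side lines above both low-side lines, and 1571 (15.2%) had the reverse. Few of these were far apart. A gap of at least 0.5 was present in 51 genes higher on the high side (0.493%) and in 82 higher on the low side (0.793%), and a gap of at least 1 in 7 (0.0677%) and 11 (0.106%). The median difference over all genes was 0.0009 and 50.2% of genes were higher on the high side. Just inside and just outside the gap of 1 were Zfhx4 (1.11) and Pclo (0.93) on the high side, and Sox21 (-1.01) and Arrdc4 (-0.98) on the low side. At the gap of 0.5 the neighbours were Cdca5 and Hmgn3 (both 0.50) and Lrrc46 and Nufip2 (both -0.50). Many of the separated genes were dim, since all 5 lines were below a signal of 500 in 25 of the 51 and 35 of the 82. Where another probe set of the gene passed the filter, every other probe set had the same direction for 11 of 14 such genes of the high side and 27 of 28 of the low side, and at least 1 also separated the sides in 11 and 24 of them. The exceptions, with at least 1 probe set of the opposite sign, were Sntb2, Lipa and H2-K1 on the high side and Usp53 on the low side.

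The lines of a side also differed among themselves. Within the high side, 389 genes differed at least 2-fold between clones 11 and 9, 337 between clone 9 and the original cells, and 184 between clone 11 and the original cells. The low-side clones differed in 135 genes. The original cells differed from clones 3 and 10 in 176 and 174 genes, close to their distance from clone 11, whereas clone 9 differed from them in 464 and 497. By this measure the original cells were about as near to the low side as to clone 11, and nearer to it than to clone 9. Clone 11 differed from clones 3 and 10 in 290 and 287 genes, fewer than from clone 9. Clone 9 was the most distant of the 5 lines.

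**Figure D1:**
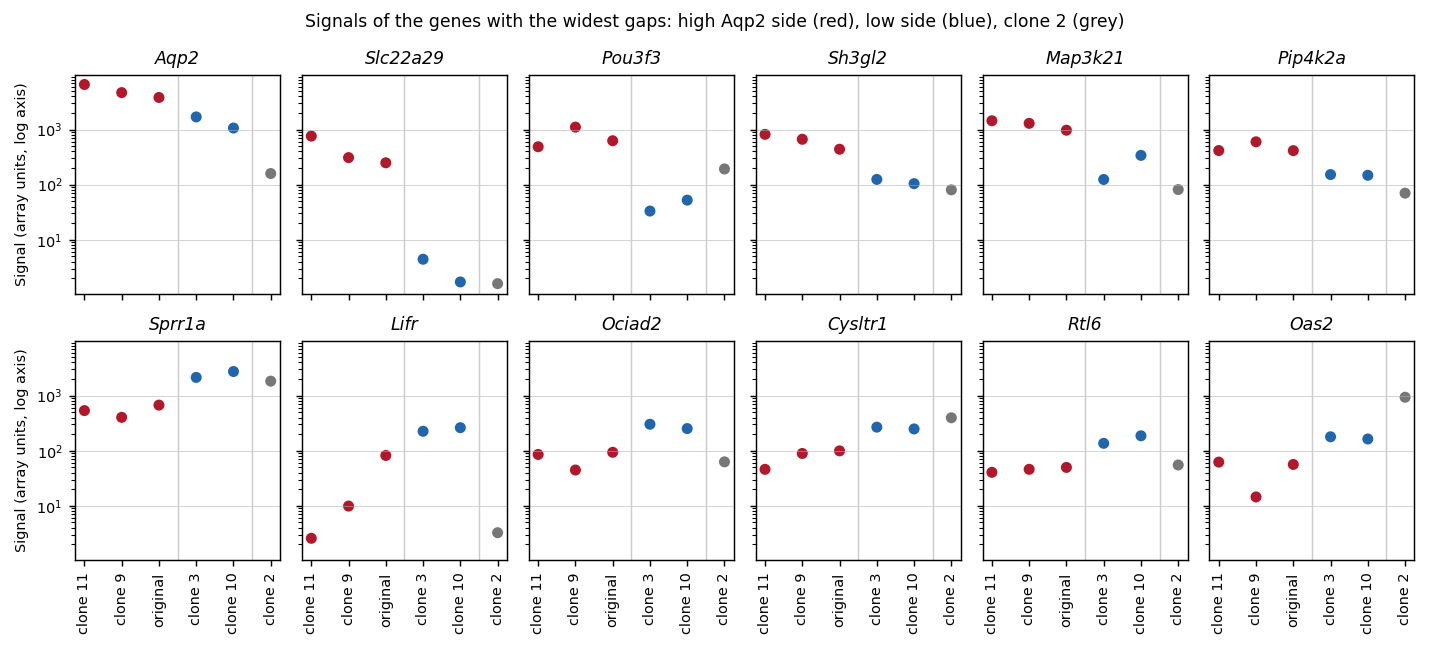
Signals in array units on a log axis for Aqp2 and the genes with the widest gaps, 1 point per line, with high-side lines in red, low-side lines in blue and clone 2 in grey. Upper panels hold Aqp2 and 5 genes higher on the high side, lower panels 6 genes higher on the low side. Aqp2 falls from 6578 in clone 11 to 1066 in clone 10, and clone 2 lies with the low side for Sh3gl2 and Pip4k2a but with the high side for Lifr, Ociad2 and Rtl6.

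Genes higher on the high side with the widest gaps included transcription factors and a protein of endocytosis. Slc22a29, of the organic anion transporter family, had 762 in clone 11, 310.0 in clone 9 and 249 in the original cells, against 4.43 in clone 3 and 1.72 in clone 10. The low-side values are at the floor of the array, and the probe set is of a type that can bind transcripts of related genes, so the gap of 3.53 is uncertain for this gene. Pou3f3, a POU-domain transcription factor of nephron development, was clear of the floor on the high side, with 488 in clone 11, 1108 in clone 9 and 627 in the original cells, against 33.2 in clone 3 and 52.4 in clone 10. Its gap was 2.83 and its difference 3.56, and clone 2 lay between the sides at 193. Sh3gl2 encodes endophilin A1, which bends membrane during clathrin-mediated endocytosis. It had 819 in clone 11, 667 in clone 9 and 439.8 in the original cells, against 125 in clone 3 and 104 in clone 10, a gap of 1.68, and its 2 other probe sets also separated the sides.

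Signalling enzymes followed. Map3k21, a mixed-lineage kinase, had 1446 in clone 11, 1297 in clone 9 and 974 in the original cells, against 124 in clone 3 and 340.2 in clone 10 (gap 1.47), so the low-side lines differed from each other by more than the high-side lines did. Pip4k2a, a phosphatidylinositol phosphate kinase, was highest in clone 9, with 416, 599.5 and 415 on the high side and 153 and 148 on the low side (gap 1.34), and both of its other probe sets separated the sides as well. Zfhx4, a zinc finger homeobox factor, had 195, 188 and 207 against 56.4 and 77.0. The signals of clone 2 were 81.5 for Map3k21, 70.2 for Pip4k2a and 36.9 for Zfhx4, below both low-side lines in each case.

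Gja1, which encodes the gap junction protein connexin 43, had 830.3 in clone 11, 683 in clone 9 and 307 in the original cells, against 105 in clone 3 and 164 in clone 10, with only 9.57 in clone 2. All 4 of its other probe sets separated the sides in the same direction. Phyh, a peroxisomal enzyme of phytanic acid breakdown, had 663, 628 and 572 on the high side and 306 and 262 on the low side, and clone 2 at 294 lay with the low lines. Pclo, a scaffold of presynaptic vesicle release, had 283, 209 and 115 against 51.4 and 38.3. Rasgrp2, an exchange factor for Rap1, had 153, 233 and 106 against 42.8 and 51.3, and the membrane protein Vstm5 had 197, 196 and 154 against 75.3 and 72.3.

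Genes higher on the low side were led by Sprr1a, a precursor of the cornified envelope of stratified and stressed epithelia. It had 536 in clone 11, 404 in clone 9 and 674 in the original cells, against 2145 in clone 3 and 2743 in clone 10, a difference of -2.16 and a gap of -1.64. Clone 2, at 1836, resembled the low side. Lifr, the receptor of leukaemia inhibitory factor, had 2.58 in clone 11, 9.91 in clone 9 and 82.3 in the original cells, against 226 in clone 3 and 262 in clone 10, so the original cells stood much nearer to the low side than the high-side clones did. Clone 2 had a Lifr signal of 3.26, like clone 11.

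Several of these genes act at the cell surface. Cysltr1, a cysteinyl leukotriene receptor, had 46.0, 89.3 and 99.6 on the high side and 268 and 249 on the low side (gap -1.18). Atp6v0a4, a proton pump subunit of the apical membrane of intercalated cells, had 188, 81.2 and 139.8 against 488 and 439.6 (gap -1.15), and clone 2 had 479.7. Scnn1b, the beta subunit of the epithelial sodium channel, had 112, 96.6 and 184 against 350.4 and 507 and 194 in clone 2, which has the least Aqp2 but lay next to the original cells for this channel subunit. Kcnj16, an inward rectifier potassium channel subunit, had 131, 36.0 and 235 against 406 and 679. The gaps of Scnn1b (-0.86) and Kcnj16 (-0.75) fell short of 1.

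The others with a gap of at least 1 were Ociad2 (85.7, 44.7 and 93.8 against 303 and 253), Rtl6 (40.6, 46.1 and 49.9 against 136 and 187), Samd5 (38.4, 40.8 and 32.1 against 142 and 112), Fam189b (93.8, 90.8 and 80.3 against 224 and 315), the zinc finger gene Zik1 (104, 77.2 and 100.3 against 241 and 272), the transcription factor Sox21 (213, 139 and 128 against 519 and 450.4) and Oas2, an antiviral oligoadenylate synthetase (62.3, 14.5 and 56.5 against 179 and 164). The arrestin-domain gene Arrdc4 fell just short, with 20.2, 4.86 and 64.3 against 146 and 181. Within the high side clone 9 was the lowest line for Ociad2, Zik1, Oas2 and Arrdc4.

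Clone 2 was not used to choose the sides, so the same genes were looked at in it. It was compared with the 5 expressing lines by limma across 22518 probe sets, where 184 (0.817%) were higher and 376 (1.67%) lower at an adjusted p under 0.05. Counted by the probe set that represents each gene, 133 genes (1.29%) rose and 192 (1.86%) fell. This fit contains all 5 lines of the side contrast, whose differences enter its residual spread, and its p-values rest on the spread between single arrays of different lines. Of the 50 genes other than Aqp2 with a gap of at least 0.5 on the high side, clone 2 was closer to the low-side mean in 25 (50%), below all 5 lines in 12 and above all 5 in 7. Of the 82 on the low side it was closer to the low-side mean in 49 (59.8%), above all 5 in 25 and below all 5 in 9. Over all genes past the filter, clone 2 was closer to the low-side mean in 52.0%. Positions beyond all 5 lines were counted only for genes that did not overlap between the sides. Of 1829 such genes of the high side, Aqp2 left out, clone 2 was below all 5 in 558 and above all 5 in 357. Of 1571 of the low side it was below all 5 in 329 and above all 5 in 528.

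None of the 50 high-side genes passed the test in clone 2, and 1 of the 82 low-side genes did. That gene was Frem2, an extracellular matrix protein of epithelial basement membranes, with 3109 in clone 11, 2317 in clone 9 and 3206 in the original cells, against 5085 in clone 3 and 5263 in clone 10 and 1038 in clone 2. Its log2 difference in clone 2 was -1.78 (limma adjusted p = 0.0499, 0.0145 to 0.105 over the settings tried). It was thus highest on the low side and lowest in clone 2. Aqp2 fell in clone 2 by 4.05 on the log2 scale (limma adjusted p = 0.0388, 0.0173 to 0.157 over the settings tried). Among the 50 high-side genes Gja1 came nearest, with -3.57 and a limma adjusted p of 0.0733 (0.0377 to 0.186 over the settings tried). On the low side Ddx58, an RNA sensor of the interferon response, came nearest after Frem2, with 1.31 and a limma adjusted p of 0.0619 (0.0501 to 0.123 over the settings tried).

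**Figure D2:**
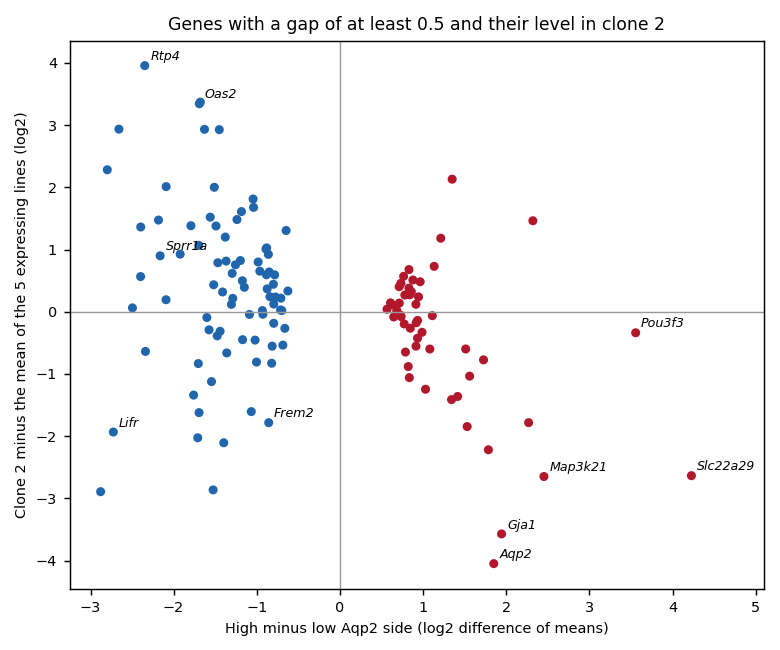
Each point is a gene with a gap of at least 0.5, with the high minus low difference of side means on the horizontal axis and clone 2 minus the mean of the 5 expressing lines on the vertical axis, both in log2 units. Red points (51 genes, Aqp2 among them) were higher on the high side and blue points (82 genes) on the low side, and both colours spread above and below the horizontal line at 0.

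The order of Aqp2 over all 6 lines was shared by 83 genes, Aqp2 included (0.803%), and 63 had its exact reverse (0.609%). Over the 5 expressing lines alone the counts were 187 (1.81%) and 147 (1.42%). By the widest gap, those in the same order were Slc22a29, Sh3gl2, Mb21d2, 1700128E19Rik, Tcte2, Igdcc3 and Cep57. For Slc22a29 the order among clones 3, 10 and 2 rests on signals at the floor of the array. Igdcc3, a transmembrane protein of the immunoglobulin superfamily, had 738 in clone 11, 678 in clone 9 and 646 in the original cells, against 492 in clone 3 and 476 in clone 10, and it fell in clone 2, to 225 (log2 difference -1.34, limma adjusted p = 0.0381, 0.0292 to 0.0863 over the settings tried). Cep57, a centrosome protein, had 1571 in clone 11, 1567 in clone 9 and 1375 in the original cells, against 1059 in clone 3 and 876 in clone 10 and 578 in clone 2. Igdcc3 and Cep57 both lie on chromosome 9. From 60 to 80 Mb, around Igdcc3, the median gene also had the order of Aqp2 over the 5 lines. Its deviations from their mean were 0.21, 0.18 and 0.03 against -0.17 and -0.21. From 0 to 20 Mb, around Cep57, the median gene had the order over all 6 lines. There it was at 0.23, 0.19 and 0.05 against -0.20 and -0.23. The part of the chromosome in either order was not tested. Cep57 lies in the first 20 Mb of chromosome 9, where the median gene of clone 2 was also low, at -0.999, against -1.10 for Cep57 itself (limma adjusted p = 0.0925, 0.05 to 0.17 over the settings tried).

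In the reverse order were Ephb6, Trib2, Eya2, Lrp8, Tgfbr1, Irgm1, Serpinb9 and Mtss1. Mtss1, an actin-binding protein of membrane protrusions, had 930.4 in clone 11, 1011 in clone 9 and 1797 in the original cells, against 2213 in clone 3 and 2299 in clone 10, with 2635 in clone 2, and 3 of its 4 other probe sets separated the sides. Tgfbr1, the type I receptor of TGF beta, had 1308, 1702 and 1755 on the high side, 2281 and 2287 on the low side and 2376 in clone 2. Ephb6, an ephrin receptor without kinase activity, ran from 6.34 in clone 11 to 107 in clone 10 and 464 in clone 2, with clones 11 and 9 both at the floor and so in no order, and Trib2, a pseudokinase, from 47.6 to 149 and 349.7. None of the 8 passed the clone 2 test, with limma adjusted p-values from 0.0681 to 0.482. An order over 6 single arrays carries no error estimate.

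Some chromosomes separated the sides in the median of their genes. For each line, the median over a chromosome's genes of the deviation from the mean of the 5 lines was taken, with gene positions from GRCm38.p6. Of 20 chromosomes, 6 had medians that did not overlap between the sides: 8, 9, 17 and 19 were higher on the high side and 2 and 16 on the low side. Among single genes, 17.7% were higher on the high side without overlap and 15.2% on the low side. With each line's median over all genes subtracted, chromosomes 1, 4, 5, 6, 7 and 13 also separated. They were higher on the low side, with gaps no wider than -0.02. Chromosome 9 stood out, at 0.15 in clone 11, 0.17 in clone 9 and 0.05 in the original cells against -0.17 in clone 3 and -0.18 in clone 10. Of its 575 genes, 87.1% had a higher mean on the high side and 57.7% did not overlap between the sides. Clone 2 had a chromosome 9 median of -0.02, between the sides, but not evenly along the chromosome, as the windows show.

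Chromosome 17 had medians of 0.11 in clone 11, 0.11 in clone 9 and -0.004 in the original cells against -0.10 and -0.11 in clones 3 and 10. Chromosome 19 had 0.05, 0.03 and 0.09 against -0.07 and -0.09. On chromosome 8 the separation was narrow, with a gap of 0.03, and clone 9 alone was far up at 0.18, against -0.03 in clone 11 and 0.02 in the original cells. The chromosome 16 medians were 0.00, -0.07 and -0.03 on the high side and 0.07 and 0.06 on the low side, and those of chromosome 2 were separated by a gap of only -0.01. Separation was present in all 14 settings tried for chromosomes 8, 9, 17 and 19, in 13 for chromosome 16 and in 11 for chromosome 2.

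Windows of 20 Mb located these differences further. All 7 windows of chromosome 9 separated the sides, with gaps from 0.09 to 0.28. Below 80 Mb clone 11 was the highest line, at 0.21 to 0.23, and beyond 80 Mb it dropped to between 0.01 and 0.07 while clone 9 held 0.17 to 0.19. Clone 2 was at -0.999 in the first window (33 genes), far below the -0.20 and -0.23 of clones 3 and 10, and between -0.05 and 0.12 in the other 6. All 5 windows of chromosome 17 separated the sides too, but on chromosome 2 only the 2 windows from 160 Mb did, and the window from 180 Mb had 0.20 in both low-side clones against -0.21, 0.04 and -0.18 on the high side. On chromosome 8 the 4 windows from 60 Mb onward separated the sides and the 3 before them did not.

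**Figure D3:**
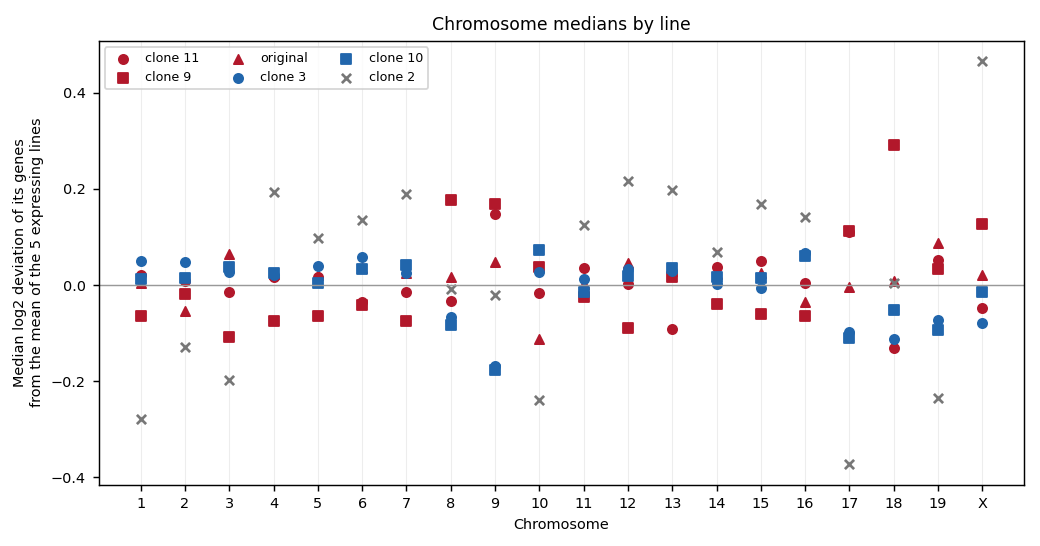
Median log2 deviation of each chromosome's genes from the mean of the 5 expressing lines, 1 symbol per line, with high-side lines in red, low-side lines in blue and clone 2 as grey crosses. On chromosome 9 the red symbols lie between 0.05 and 0.17 and the blue ones at -0.17 and -0.18, and chromosomes 17 and 19 show the same separation at a smaller size.

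Chromosomes 8, 9, 17 and 19 carried 2033 of the 10342 genes (19.7%), but 825 of the 1830 genes that were higher on the high side without overlap (45.1%) and 25 of the 51 with a gap of at least 0.5. Chromosome 9 alone carried 13 of these 51. Only 86 of the 1571 low-side genes (5.47%) lay on the 4 chromosomes. Of the 8309 genes off them, 1005 (12.1%) were higher on the high side and 1485 (17.9%) on the low side. The 4 chromosomes were picked by these same values, so their larger share of high-side genes is fixed in part by that choice. Aqp2, on chromosome 15, was outside them.

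Among the genes with the widest gaps on the shifted chromosomes, Spc24 acts in cell division. Vstm5, given above, had the widest gap on chromosome 9 (0.88). On chromosome 9, Spc24, a kinetochore protein, had 1619 in clone 11, 1623 in clone 9 and 1590.3 in the original cells, against 939 in clone 3 and 729 in clone 10, and Hyls1, a protein of centrioles, had 219, 239.7 and 186 against 96.7 and 113. On chromosome 17, the kinase scaffold Mapk8ip3 had 494, 474 and 379 against 228 and 204 and Egfl8 had 126, 131 and 115 against 63.0 and 50.9. H2-K1, a class I antigen-presenting molecule, also lies there and had 4316 in clone 11, 4648 in clone 9 and 4375 in the original cells, against 2041 in clone 3 and 3039.9 in clone 10. Sntb2 and Abhd8 led on chromosome 8 beside Map3k21, with 196, 358 and 218 against 114 and 47.3 and 491, 561 and 504 against 321 and 297, and the lysosomal lipase Lipa on chromosome 19 had 435, 456 and 394 against 272 and 260.4. The 3 other probe sets of Sntb2 and the 1 of Mapk8ip3 did not separate the sides.

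On the low side, chromosome 16 was led by Rtp4, an interferon-induced gene described below, by the p53-induced gene Cdip1 (840.3, 952 and 900.4 against 1566 and 1782, with all 3 other probe sets alike) and by the carbonyl reductase Cbr3 (519.6, 372 and 929 against 1513 and 1958). Chromosome 2 was led by the organic anion transporter Slco4a1 (1293, 1837 and 1682 against 2916 and 2938), the surface peptidase Dpp4 (101, 2.11 and 291 against 456 and 549.8) and the uridine kinase Uckl1 (511, 519 and 537 against 813 and 820.3). Uckl1 was even within each side, whereas Slco4a1 was lowest in clone 11 and Dpp4 was at the floor in clone 9.

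Gene lists of collecting duct biology were then read against the shares of all genes, 17.7% for the high side and 15.2% for the low side. Leaving out a line raises these shares as it raises the counts of a list. When clone 3 was removed they were 29.7% for the high side and 26.3% for the low side. For clone 10 they were 26.8% and 26.2%, for clone 9 25% and 20.6%, for clone 11 24.5% and 22.5%, and for the original cells 24% and 22.4%. Of 18 principal cell genes besides Aqp2, 2 were higher on the high side and 5 on the low side without overlap, with a median difference of -0.002, or 0.02 under median centring. Tfcp2l1, a transcription factor of collecting duct cells, had 5813, 5983 and 5638 against 5265 and 5184, and the basolateral water channel Aqp3 had 126, 150.0 and 113 against 102 and 96.4. The 5 low-side genes were Scnn1b as above, Scnn1g, the gamma subunit of the channel (829.7, 183 and 378 against 872 and 988), Atp1b1, a sodium pump subunit (16298, 14651 and 14549.7 against 20406 and 17310.1), St6gal1, a sialyltransferase, and Npnt, a matrix protein. Scnn1a, the alpha subunit of the sodium channel (512, 532 and 592 on the high side, with clone 10 above them at 698 and clone 3 just below), and Fxyd4, a regulator of the sodium pump (3246, 2304 and 4214 against 3759 and 3884), overlapped between the sides. Scnn1g and St6gal1 were lowest in clone 9, at 183 and 10.9. Gata3, a factor of the collecting duct lineage, overlapped, with 3721, 3975 and 3679.8 against 3698 and 3960.4.

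Vasopressin and cyclic AMP signalling had 7 of 37 genes (18.9%) higher on the high side and 6 (16.2%) on the low side, near the shares of all genes, with a median of 0.03. The high-side genes included the kinases' regulatory subunit Prkar2a (2301, 2680.3 and 2214 against 1797 and 1768), the protein kinase A inhibitor Pkia (539, 739.6 and 627 against 426 and 454), the inhibitory G protein Gnai2 (5274, 6239 and 5659 against 4069 and 4258) and the salt-inducible kinase Sik2 (1051, 1278 and 1099 against 804 and 686). The low-side genes included the adenylyl cyclase Adcy9 (81.5, 172 and 202 against 275 and 252) and another regulatory subunit, Prkar2b (2087, 1743 and 1957 against 2494 and 2169). Gnas, the stimulatory G protein (15106, 17232 and 13750.2 against 15047 and 14921), and Creb1, a factor that binds the cyclic AMP response element (2245, 2721 and 2360.3 against 2507 and 2037), overlapped. Prkar2a, Gnai2 and Sik2 lie on chromosome 9. Without clone 3 the counts were 15 and 9, where all genes gave 29.7% and 26.3%, and without clone 10 they were 7 and 10 with a median of -0.03, where all genes gave 26.8% and 26.2%.

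AQP2 vesicle trafficking had 13 of 44 genes higher on the high side and 6 on the low side, with a median of 0.06. Rab27a, a GTPase of secretory vesicles, had 443 in clone 11, 504 in clone 9 and 456 in the original cells, against 311 in clone 3 and 312 in clone 10, and the vesicle motor Myo5a had 573, 543 and 481 against 343 and 371. The caveola protein Cav1 had 3319, 3503 and 3183 against 2365 and 2385, Anxa2, a membrane-binding annexin, had 13644, 13190.1 and 11229.9 against 9663 and 8908, and Stub1, a ubiquitin ligase, had 5923, 5328 and 5074 against 4398 and 4409.8. Of the 13 genes, 9 lay on chromosomes 8, 9, 17 and 19 and 7 of these on chromosome 9, against 17 and 9 of all 44. Low-side genes were Anxa4, the SNARE proteins Stx4a and Snap23, the clathrin heavy chain Cltc, Vta1 and Mal, with gaps no wider than -0.16. The counts were 20 and 7 without clone 3, where all genes gave 29.7% and 26.3%, and 19 and 11 without clone 11, where they gave 24.5% and 22.5%.

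Of 22 aldosterone and glucocorticoid response genes, 5 were higher on the high side and 6 on the low side, with a median of -0.01, or 0.01 under median centring. The other 11, among them Per1 and Dusp1, overlapped. Higher on the high side were Tsc22d3 (967, 1342 and 889.7 against 681 and 669) and Fkbp5 (1500.5, 2479 and 1727 against 1211 and 1235). So were Klf9 (2294, 2416 and 2188 against 1835 and 1876) and the protease St14 (6879, 6099 and 6769 against 4278 and 3908). Sgk1, the kinase that keeps sodium channels at the membrane, was higher on the low side with 188, 132 and 233 against 371 and 323, together with Scnn1b, Scnn1g, Atp1b1 and the proteins Spint2 and Tmprss4, a protease inhibitor and a protease. Of the 5 high-side genes, 4 lay on chromosomes 8, 9, 17 and 19, as did 8 of all 22. The low-side count was 9 without clone 3, where all genes gave 26.3%.

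Transcription factors were mixed. Of 17 ETS factors, 2 were higher on the high side and 6 on the low side, with a median of -0.16. Ehf, an epithelial ETS factor, had 3393, 2438 and 2916 against 3757 and 3910.5, Etv3 had 619, 597 and 762 against 855 and 849.8, and Elf3, another epithelial member, had 2181, 1998 and 2361 against 2415 and 2523. Ets1 was higher on the high side with 2128, 1958 and 1840.5 against 1645 and 1566. Median centring left 4 low-side ETS genes, and 10 were counted without clone 9, where all genes gave 20.6%. Of 16 HOX factors, 2 were higher on the low side, led by Hoxa7 (292, 259 and 319.7 against 510.1 and 464), but under quantile normalization 2 were higher on the high side and 1 on the low side.

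Other collecting duct transcription factors gave 6 of 43 higher on the high side and 8 on the low side, with a median of 0.01, and the side with more genes changed without clone 3 (14 and 12) and without clone 11 (13 and 12). Sox9, a factor of progenitor and injured epithelium, had 285 in clone 11, 432 in clone 9 and 277 in the original cells, against 148 in clone 3 and 179 in clone 10. Junb had 1602, 1593 and 1631 against 1178 and 1229 and Rela, an NF-kB subunit, 5811, 5297 and 5370.2 against 4383 and 4374. In the other direction were Klf4 (369, 142 and 471 against 701 and 736), the forkhead factor Foxa1 (1529.7, 945 and 1540.4 against 2327 and 2239.5) and the AP-1 gene Fos (1585, 631 and 1952 against 2259.7 and 2704), each lowest in clone 9. Osmotic response genes had 3 of 14 higher on the low side and none on the high side, the 3 being Sgk1, the chaperone Hspa1a and the amino acid transporter Slc38a2, and Nfat5, the tonicity factor, overlapped (3862, 4627 and 3519.6 against 3724 and 4179).

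Target genes of p53, which arrests or kills cells with damaged DNA, were higher on the low side. Of 23 genes, 9 (39.1%) were higher on the low side, none on the high side, and 22 had a lower mean on the high side, with a median difference of -0.20. Ccng1, cyclin G1, had 2634 in clone 11, 2058 in clone 9 and 2700.5 in the original cells, against 4984 in clone 3 and 4602 in clone 10, and both of its other probe sets separated the sides. Trp53inp1 had 664 in clone 11, 299.8 in clone 9 and 649 in the original cells, against 1624 in clone 3 and 1311 in clone 10. Zmat3, an RNA-binding target, had 833, 1016 and 869 against 1661 and 1506, Mdm2, the ubiquitin ligase of p53, 987, 1255 and 1164 against 1619 and 1372, and Cdkn1a, the cell cycle inhibitor p21, 4725, 5352 and 4569 against 5514 and 6148. The count was 9 under quantile normalization and median centring, and 16 without clone 3, where all genes gave 26.3%. Without clone 10, 3 genes were higher on the high side and 11 on the low side, where all genes gave 26.8% and 26.2%. In clone 2, 1 of the 23 was called lower and none higher.

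Cell cycle genes that separated the sides were mostly higher on the high side. Of 35, 14 (40%) were higher on the high side and 2 on the low side, with a median of 0.15. Cdkn1a, 1 of these 2, is on both lists. The mean was higher on the high side in 21 of the 35, and in 50.2% of all genes. The list was thus less one-sided than the p53 targets. Ccnb2, a mitotic cyclin, had 3743 in clone 11, 3784 in clone 9 and 3061 in the original cells, against 2048 in clone 3 and 1863 in clone 10. Birc5, a protein of the chromosomal passenger complex, had 4236, 5332 and 4592 against 3068 and 2782, the proliferation antigen Mki67 8321, 9424 and 9016 against 7227 and 5769.6, Top2a, topoisomerase II alpha, 9128, 9845 and 9014 against 8103 and 6512, and Cdk1 6826, 7347 and 6235 against 5626 and 5638. Clone 10 was the lowest line for Ccnb2, Birc5, Mki67 and Top2a, and the median was 0.07 without it. Clone 2, with the least Aqp2, was above all 5 lines for Mki67 at 10679 and Top2a at 11889, and within the range of the high side for Ccnb2 at 3362, Birc5 at 5293 and Cdk1 at 6458. Of the 14 genes, 3 (21.4%) lay on chromosomes 8, 9, 17 and 19, as did 4 of all 35 and 19.7% of all genes past the filter. Culture density or growth state was not recorded in the sources used here.

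Of 35 interferon response genes, 12 (34.3%) were higher on the low side, 3 on the high side and 20 overlapped, with a median of -0.46, and 16 rose and none fell in clone 2 by limma. The summed signal of the list overlapped between the sides, at 20487 to 23041 on the high side and 19958 to 21727 on the low side, and was 67059 in clone 2. Rtp4 had 76.8 in clone 11, 54.9 in clone 9 and 209 in the original cells, against 889 in clone 3 and 373 in clone 10, with 3467 in clone 2. Ifit1, an antiviral RNA-binding protein, had 218 in clone 11, 99.4 in clone 9 and 255 in the original cells, against 756 in clone 3 and 461 in clone 10, with 2344 in clone 2. The RNA sensors Ddx58 (376, 345 and 358 against 590.1 and 558) and Ifih1 (308, 318 and 543 against 1132 and 652) and the factor Irf9 (354, 383 and 477 against 707 and 596) were also higher on the low side. Clone 3 was above clone 10 for Rtp4, Ifit1, Ddx58, Ifih1 and Irf9, and without it the median was -0.31. The low-side count was 22 without clone 10, where all genes gave 26.2%, and 20 without the original cells, where they gave 22.4%. The 3 high-side genes were H2-K1 and H2-D1, both on chromosome 17, and Oas3, which was near the floor in all 5 lines.

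Oxidative phosphorylation had 12 of 38 genes higher on the high side and 2 on the low side, with a median of 0.05. Uqcrc1, of complex III, had 4892, 5016 and 4405 against 3637 and 3482, Sdhd, of complex II, 3052, 2317 and 2251 against 1898 and 1770.0, and Ndufv1, of complex I, 7487, 6794 and 6399 against 5513 and 4729. Of the 12 genes, 8 lay on chromosomes 8, 9, 17 and 19, which were all the list's genes there. The high-side count was 21 without clone 9, where all genes gave 25%, and the low-side count was 7 without clone 11, where they gave 22.5%. Off these chromosomes, the shares of all genes were 12.1% for the high side and 17.9% for the low side. The part of chromosomes 8, 9, 17 and 19 in these list counts was not tested.

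**Figure D4:**
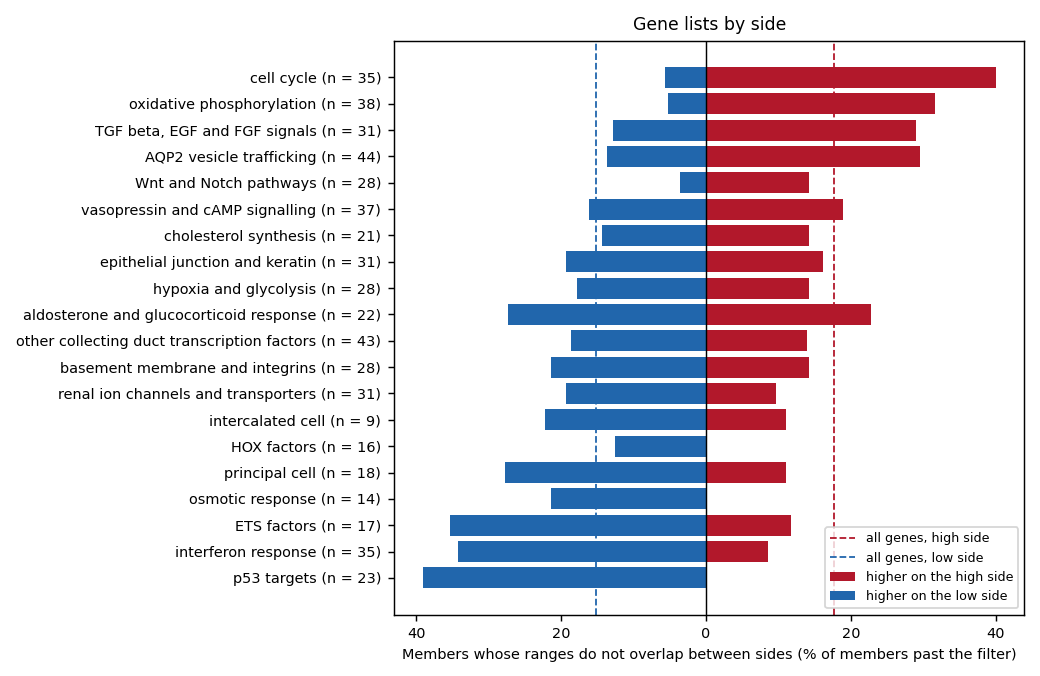
Share of the members past the filter, in percent, whose signals did not overlap between the sides, with members higher on the high side drawn to the right in red and members higher on the low side to the left in blue, and n giving the members past the filter. Dashed lines mark the shares of all genes, 17.7% and 15.2%. Cell cycle genes reach 40% on the right, and p53 targets reach 39.1% on the left with none on the right.

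Signals of growth and matrix gave smaller counts. Of 31 TGF beta, EGF and FGF genes, 9 were higher on the high side and 4 on the low side: Tgfbr2, the type II receptor, had 5766, 6747 and 5249 against 4156 and 3899, while Tgfbr1 was lower there, as above, and Tgfbr3, the co-receptor betaglycan, had 2161, 1063 and 1724 against 3414 and 3261. Of 28 basement membrane and integrin genes, 4 were higher on the high side and 6 on the low side. Lamb3, a laminin chain, had 2085, 3070.2 and 2433 against 1384 and 1378 and Col4a1, a type IV collagen chain, 2893, 6667 and 2714 against 1564 and 2195. Col4a6, another chain of that collagen, had 25.4, 23.6 and 240.5 against 424 and 369, so the original cells were near the low side. The counts of this list were 10 and 8 without clone 10, and 8 and 7 when the original cells were left out, so the side with more genes depended on the lines kept. Wnt and Notch genes gave 4 of 28 higher on the high side and 1 on the low side, with Ctnnb1, beta-catenin, at 18018, 16455 and 16744 against 15837 and 15103, and 5 on each side without clone 10 or clone 11.

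Epithelial junction and keratin genes gave 5 of 31 higher on the high side and 6 on the low side, or 11 and 8 without clone 9 and 10 and 7 without clone 10. The tight junction gene Cldn8 had 8299 in clone 11, 615 in clone 9 and 6128 in the original cells, against 9127 in clone 3 and 9066 in clone 10, with clone 9 far below the other lines, and Krt8 overlapped (24662, 19974 and 22202 against 20791 and 22050.2). Renal ion channel and transporter genes gave 3 of 31 on the high side and 6 on the low side, where Kcnj16 had the widest gap, but 8 on each without clone 10 and 9 on each without clone 11. The hypoxia and glycolysis list gave 4 of 28 and 5, but 12 and 5 without clone 3 and 4 and 12 without clone 10, so a single line decided which side had more. Cholesterol synthesis gave 3 of 21 and 3, or 7 and 5 without clone 3 and 3 and 7 without clone 10. The glycolytic enzymes Tpi1 and Aldoa and the sterol enzyme Fdps overlapped between the sides.

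Genes of other cell types were counted beside these. Of 9 intercalated cell genes past the filter, Bsnd, the barttin subunit of chloride channels, was higher on the high side (476, 287 and 386 against 194 and 133), and Atp6v0a4 and the carbonic anhydrase Car2 (3553, 2318 and 3192 against 4437 and 4895) were higher on the low side, where the summed signal of the list was 8359 to 8679 against 5468 to 8319. Both proximal tubule genes past the filter were higher on the low side: Lrp2, the endocytic receptor megalin, had 834, 943 and 809 against 1067 and 1056, and Kap had 81.9, 108 and 80.7 against 135 and 141. Among genes of the loop of Henle and of the distal convoluted tubule 1 of 6 was higher on the low side, Wnk4, and the endothelial and leukocyte list 1 of 3, Csf1r (1841, 1641 and 1646 against 2564 and 2554). None of 4 fibroblast and mesenchymal genes separated the sides. The defining markers of these cell types were below the filter, as given above, and the part of other cell types in the contrast was not tested.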

How the data were processed

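RNA of 6 mpkCCD lines was measured on Affymetrix mouse arrays with 45101 probe sets. The authors deposited linear signal intensities, computed by MAS5 in Expression Console 1.1 of Affymetrix per the submitters' processing notes. With 2% of probe sets trimmed at either end, every array averaged 500, which shows a common scaling. Its target is not given in the sources used here, and detection calls were not used. Because MAS5 subtracts mismatch probes, low signals are noisy.

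The 64 control probe sets were left out. An offset of 18.8, which is the 25th percentile of the deposited signals, was added before taking log2, and it understates differences of low signals. The filter kept probe sets whose average over 6 arrays exceeded 85.5, the median of these averages (22518 probe sets, 10342 genes). A gene was its probe set with 1 annotated gene and the highest mean signal. Of 45037 probe sets, 34945 had 1 gene, 932 several and 9160 none, and 34741 symbols were updated through a gene table of GRCm38.p6, which also gave positions.

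The sides, members, lists and rules were chosen with earlier results of these data known. A side result is a value per line, the difference of side means and the gap, with no test. Clone 2 was compared with the 5 expressing lines, the groups of the labels, by limma 3.58.1 in R 4.3.3 (lmFit, eBayes with trend, two-sided, Benjamini-Hochberg, 4 residual degrees of freedom), and its single array is assumed to vary like the others. The script was tested on simulated data.

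Genes were named by rule: Aqp2, the 12 widest gaps per direction, up to 8 per direction in the order or reverse order of Aqp2, up to 3 per list with a gap of at least 0.5 or else the 2 of highest mean signal, and up to 3 per separated chromosome. Genes of a list named beyond these were chosen after their values were seen. Alternatives were no offset or a doubled one, no filter, a filter at the 75th percentile or on the 5 lines alone, quantile normalization, median centring, other moderation, the median over a gene's probe sets, and leaving out each line. The settings for list counts and for the split of genes between sides were added after seeing the data.

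Positions, strands and promoter sequences are RefSeq's on GRCm38.p6. Of the 51 and 82 genes with a gap of at least 0.5, 39 and 62 matched a promoter.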

Additional observations from a re-analysis of the deposited data

Results flagged for a closer look

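Among 93 named genes and 20 chromosome medians over the 5 expressing lines, 4 had a line whose distance from its nearest neighbour was above Dixon's critical value of 0.71 times the range. Chance marks about 1 in 20 unselected groups. Many of the named genes were picked for a gap between the sides, which leaves less room for a single outlying line. The 4 of 113 therefore cannot be judged against that rate. Hmgcs1, an enzyme of sterol synthesis, was low in clone 11, at 9662 against 11547 to 11905 in the other lines. Tpi1, a glycolytic enzyme, was low in clone 10, at 21527 against 24319 to 25533. The median of chromosome 4 was low in clone 9, at -0.074 against 0.017 to 0.025, and that of chromosome 13 was low in clone 11, at -0.091 against 0.016 to 0.036. None of these 4 separated the sides in the values given here. With each line's median over all genes subtracted, chromosomes 4 and 13 did, by gaps of only -0.007 and -0.003.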

How the results depend on the processing

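A gene that separates 5 lines still separates 4, so the gene counts by side cannot fall when a line is left out. Chromosome medians are of deviations from the mean of the lines kept, so this is not assured for chromosomes. Of 7 genes with a gap of at least 1 on the high side there were 24 with no filter and 2 with a filter at the 75th percentile, and 13 to 32 with a line left out, the highest without clone 3. Of 11 on the low side there were 6 with a doubled offset, 35 with no filter and 1 with the stricter filter, and 15 to 56 with a line left out, the highest without the original cells. The 6 separated chromosomes became 11 with the median over a gene's probe sets and 9 to 12 with a line left out. In the clone 2 test, the 184 probe sets called higher became 76 with no filter and 69 without the trend, and 45 (without the original cells) to 325 (without clone 9) with a line left out. The 376 called lower became 134 with no filter, 150 without the trend and 232 under median centring, which called 254 higher, and 109 (without the original cells) to 618 (without clone 9). Of the genes that did not overlap between sides, 53.8% were higher on the high side, 55.3% under quantile normalization and 61.1% under median centring. No direction of a named gene's gap was turned by a setting. Other offsets, filters or moderation and leaving out a line cannot turn one, so only the normalizations and the probe set median could have. The cause of these shifts was not tested. No paired analysis was possible because the labels give no numbers that pair the lines. With 1 array per line, a line cannot be told apart from its culture, and low signals, MAS5 noise and the offset limit the size of any gap below a signal of about 500.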

Other observations

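The genes of this paragraph were picked after their values were seen, from those with a gap of at least 0.5, and their part in any process was not tested. Aqp5, another aquaporin, which lies beside Aqp2 on chromosome 15, had the opposite pattern, with 201 in clone 11, 262 in clone 9 and 244 in the original cells, against 552 in clone 3 and 444 in clone 10 and 226 in clone 2. The iron exporter Slc40a1 was lower on the high side, with 1967, 1101 and 1673 against 2792 and 3441, and Plat, tissue plasminogen activator, had 111, 139.5 and 198 against 369.7 and 341. Gas1, a hedgehog co-receptor, had 780.4 in clone 11, 7.41 in clone 9 and 472 in the original cells, against 1714 in clone 3 and 1459 in clone 10, and Sox11, a transcription factor, had 933 in clone 11, 119 in clone 9 and 901 in the original cells, against 1567 in clone 3 and 1831 in clone 10, with all 5 of its other probe sets alike, so both were far lower in clone 9 than in any of the other 4 lines. Ephx1, a detoxifying epoxide hydrolase, had 1022, 905 and 1029 against 1720.5 and 1838, and Nfkbiz, a regulator of NF-kB targets, had 1717, 1205 and 1976 against 2888 and 2914.

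On the high side, further division genes had a gap of at least 0.5 beside those of the cell cycle list. Anln, the cytokinesis protein anillin, had 7402 in clone 11, 7646 in clone 9 and 6471 in the original cells, against 4521 in clone 3 and 4194 in clone 10, and Cdca5, which stabilises sister chromatid cohesion, had 3886, 4086 and 3980.1 against 2631 and 2739.6. Both lie on chromosomes that were higher on that side, 9 and 19. Myo7a, an unconventional myosin, had 298 in clone 11, 363 in clone 9 and 302 in the original cells, against 169.9 in clone 3 and 32.3 in clone 10, so the low-side clones differed from each other more than clone 3 differed from the high side. Akr1b8, an aldo-keto reductase, had 224, 514 and 299 against 112 and 121 and its highest signal in clone 2, at 1021.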
